A study of Rattus norvegicus with 32 samples.

Results

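The insulin-like growth factor (IGF) family was examined in rat liver sinusoidal endothelial cells (LSECs), the cells that line the capillaries of the liver. The 10 genes were taken by their symbols from the 32623 genes in the deposited tables. They are the ligands Igf1 and Igf2, the receptor Igf1r and the binding proteins Igfbp1 to Igfbp7. IGF1 is made mainly by the liver under growth hormone and acts through the IGF1 receptor, a tyrosine kinase that signals through PI3 kinase and AKT. The binding proteins are secreted, hold IGFs in the circulation and in tissues, and set how much ligand reaches the receptor, and IGFBP7 binds IGFs only weakly. In the liver, Igf1 and Igfbp1 are known as hepatocyte products, and several binding proteins are made by stellate and endothelial cells.

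LSECs were isolated by liver perfusion, digestion and an iodixanol density gradient, and their poly(A) RNA was sequenced. In the carbon tetrachloride (CCl4) experiment, male Wistar Han rats inhaled this hepatotoxin for 2 weeks (acute injury, 5 libraries), 6 weeks (fibrosis, 5 libraries) or 12 to 14 weeks (cirrhosis, 6 libraries), and 6 libraries came from untreated healthy rats. Water in the CCl4 model held phenobarbital, and whether the untreated rats received it is not given in the sources used here. LSECs of the CCl4 and TAA models were isolated days after the last toxicant dose. All CCl4 rats started in the same range of body weight, so longer exposure also meant older rats. Exposure time and age cannot be told apart in these groups, which hold different rats. In the thioacetamide (TAA) experiment, 5 libraries are labelled control and 5 are labelled TAA control, all with the strain Wistar Han, whereas the study describes saline-treated and TAA-cirrhotic Sprague-Dawley rats. It was not settled which of them is the TAA-treated group, and no direction of injury is given to that comparison. The labels name no transgene, deletion or pooling of rats in any group. Values are CPM (counts scaled to a common library total) after TMM scaling, computed separately for the 22 CCl4 and the 10 TAA libraries. Totals ranged from 25646531 to 46464289 counts per library.

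The identity of the cells was checked with 10 LSEC markers fixed as a list, among them the scavenger receptors Stab1 and Stab2. Their summed level was 15508 to 29291 CPM in healthy libraries, 2406 to 3019 in acute, 1680 to 2662 in fibrosis and 14901 to 19347 in cirrhosis. Against healthy LSECs, 9 of the 10 LSEC markers were lower in acute injury, 10 of 10 in fibrosis and 4 of 10 in cirrhosis, where 1 was higher. LSEC markers were thus present in all libraries, but the acute and fibrotic libraries carried much less of them than the others. Hepatocyte markers, 10 genes with Ttr among them, summed to 1404 to 30254 CPM in healthy libraries, 153 to 963 in acute, 1410 to 5665 in fibrosis and 3210 to 15449 in cirrhosis. Stellate cell markers, also 10 genes, summed to 351 to 1000 CPM in healthy, 1341 to 2150 in acute, 1317 to 1760 in fibrosis and 934 to 2210 in cirrhosis. Most of the acute and fibrotic sums was Reln, a glycoprotein gene named after its values were seen, at 1306 to 2124 CPM in acute and 1174 to 1570 CPM in fibrotic libraries against 118 to 216 CPM in healthy ones. Of the 10 stellate markers, 7 were lower and 1, Reln, higher in acute injury, 4 were lower and 3 higher in fibrosis, and 8 were higher in cirrhosis. Markers of other cells also differed from healthy LSECs. In acute injury 8 of 9 tested Kupffer cell markers were lower, as were 6 of 7 lymphocyte, 5 of 6 mesothelial, 3 of 5 cholangiocyte and 5 of 7 pan-endothelial markers. In cirrhosis 4 of 7 cholangiocyte and 2 of 3 neutrophil markers were higher. Of all genes tested, 35.5% were higher and 37.9% lower in acute injury, 35.3% and 34.9% in fibrosis, and 27.1% and 24.7% in cirrhosis. No gene of the LSEC, hepatocyte and stellate lists was at 0 in every library of a group. In bulk RNA, fewer cells of a type and less RNA per cell cannot be told apart, and the part of these markers in the results on the IGF family was not tested.

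The 250 bases before the annotated start of 5 members are given here, taken from RefSeq on GRCr8, which is a later assembly than the Rnor_6.0 to which the reads were mapped. All 10 members matched RefSeq by symbol. Igfbp1 and Igfbp3 are direct neighbours on chromosome 14, as are Igfbp2 and Igfbp5 on chromosome 9, with 0 other protein-coding genes between them in either pair. Igfbp1, Igfbp3, Igfbp4 and Igfbp5 are shown as the binding proteins on which the results turn, Igfbp1 and Igfbp3 also as neighbours, and Igf1r because it moved against the rest. Capitals mark matches to the motifs named after the sequences.
Igfbp1 promoter, chr14:86261027-86261276 (+ strand): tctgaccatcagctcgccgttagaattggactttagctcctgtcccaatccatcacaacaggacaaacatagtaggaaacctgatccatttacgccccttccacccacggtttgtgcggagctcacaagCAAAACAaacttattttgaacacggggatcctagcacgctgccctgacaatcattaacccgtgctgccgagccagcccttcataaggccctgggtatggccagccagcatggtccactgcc
Igfbp3 promoter, chr14:86277945-86278194 (- strand): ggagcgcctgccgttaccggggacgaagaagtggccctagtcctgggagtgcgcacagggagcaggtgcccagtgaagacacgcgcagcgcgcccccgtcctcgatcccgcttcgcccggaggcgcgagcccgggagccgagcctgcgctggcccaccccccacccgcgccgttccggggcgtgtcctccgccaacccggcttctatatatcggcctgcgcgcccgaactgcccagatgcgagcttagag
Igfbp4 promoter, chr10:84491221-84491470 (+ strand): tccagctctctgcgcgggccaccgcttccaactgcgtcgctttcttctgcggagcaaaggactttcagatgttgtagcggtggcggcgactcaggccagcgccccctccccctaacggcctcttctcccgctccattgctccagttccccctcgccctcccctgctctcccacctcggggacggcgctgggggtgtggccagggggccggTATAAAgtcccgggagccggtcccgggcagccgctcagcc
Igfbp5 promoter, chr9:81914188-81914437 (- strand): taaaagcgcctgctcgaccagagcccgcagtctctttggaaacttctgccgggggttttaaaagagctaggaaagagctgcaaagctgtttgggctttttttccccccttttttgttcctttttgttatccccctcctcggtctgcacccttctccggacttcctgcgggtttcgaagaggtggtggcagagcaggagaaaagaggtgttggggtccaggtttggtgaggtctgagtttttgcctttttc
Igf1r promoter, chr1:130959747-130959996 (+ strand): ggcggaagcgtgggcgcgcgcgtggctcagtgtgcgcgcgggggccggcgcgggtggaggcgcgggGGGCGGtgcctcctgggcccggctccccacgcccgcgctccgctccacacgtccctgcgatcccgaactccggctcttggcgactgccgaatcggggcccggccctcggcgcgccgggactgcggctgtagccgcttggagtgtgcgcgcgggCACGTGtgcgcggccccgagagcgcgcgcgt

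Each promoter was searched on both strands for 5 motifs. CAAAACA, a core of the insulin response sequence bound by FOXO factors, lay 121 bases before the start in Igfbp1 and 67 in Igf1, and 5.46% of 33469 rat promoters of this length hold it. TATAAA, the TATA box, lay 40 bases before the start in Igfbp4 (12.9% of promoters). GGGCGG, a GC box, was found in Igf1r, in 1 of the 2 promoters of Igf2, in Igfbp2 and at 4 places in Igfbp7 (30.5% of promoters). CACGTG, an E box, lay 31 bases before the start of Igf1r and 140 before that of Igfbp2 (5.59% of promoters). TGANTCA, the AP-1 motif, was in none of them (6.34% of promoters), and Igfbp3, Igfbp5 and Igfbp6 held none of the 5 motifs. No motif overlapped another.

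Most of the family was far lower in LSECs after 2 weeks of CCl4 than in healthy LSECs, and higher in cirrhosis than at 2 weeks. In acute injury all binding proteins and both ligands were lower than in healthy LSECs, and the receptor Igf1r was higher. In fibrosis 8 members were still lower and Igf1r was still higher. In cirrhosis Igf2, Igfbp3 and Igfbp5 stood above healthy levels, and Igfbp4 stayed below. Igfbp2 was also called lower there, but its groups overlapped and 13 of 26 alternatives did not call it.

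**Figure D1:**
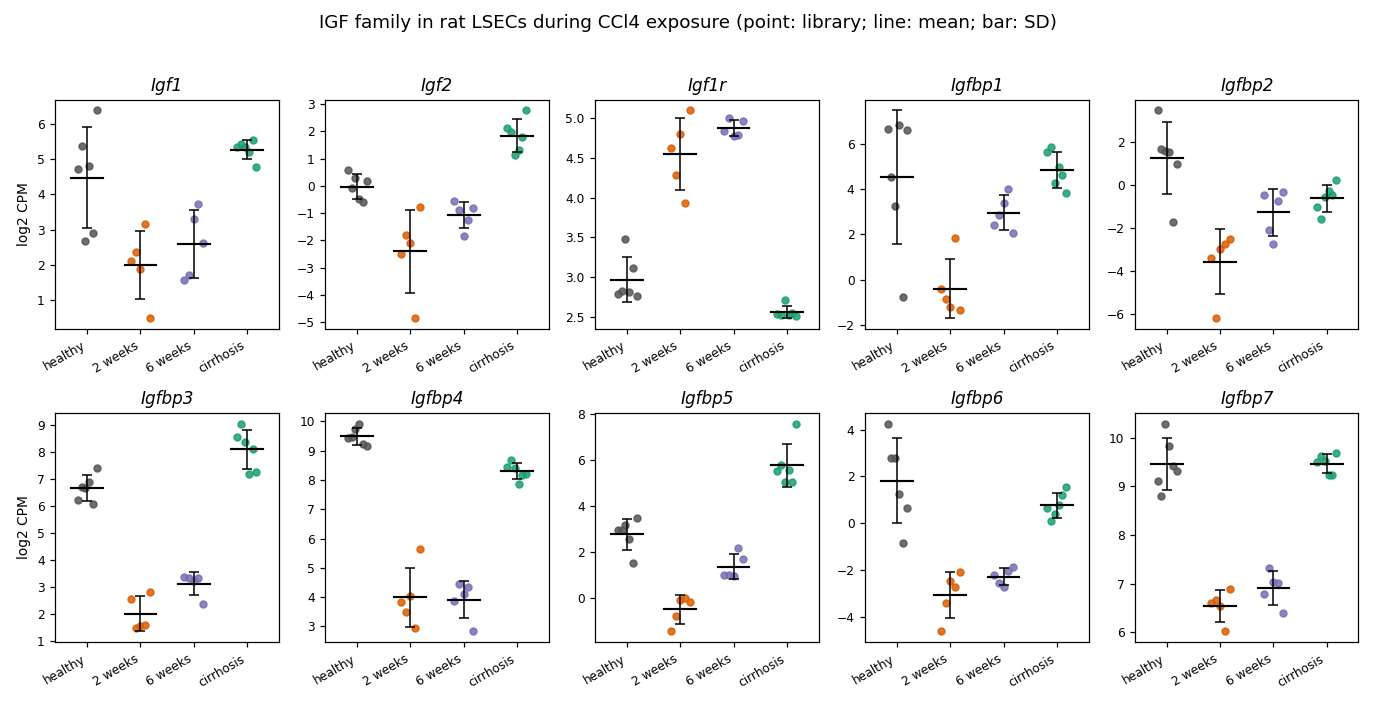
Levels of the 10 IGF family genes on a log2 CPM axis in healthy rats and after 2 weeks, 6 weeks and 12 to 14 weeks (cirrhosis) of CCl4, with 1 point per library, the mean as a line and the SD as a bar. For Igfbp3, Igfbp4, Igfbp6 and Igfbp7 all 2-week and 6-week points lie below all healthy and cirrhosis points. For Igf1, Igf2, Igfbp1, Igfbp2 and Igfbp5 the 6-week points overlap with the healthy ones. Igf1r shows the opposite direction, with 15.2 to 34.3 CPM at 2 and 6 weeks against 5.67 to 11.1 CPM in the other groups.

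A gene was called when its adjusted p (Benjamini-Hochberg, over all genes tested) was under 0.05 and its fold change above 1.5 in limma-voom fitted to the 2 groups compared. Between acute and healthy LSECs, 9 of 10 members were called lower and 1 higher, while 37.9% of the 14317 genes tested were called lower and 35.5% higher. The median log2 fold change was -3.95 over the family and -0.09 over all genes. Between fibrotic and healthy LSECs, 8 of 10 members were lower and 1 higher, against 34.9% and 35.3% of 14538 genes, with a median of -2.14 against -0.03. Between cirrhotic and healthy LSECs, 3 of 10 were higher and 2 lower, against 27.1% and 24.7% of 14789 genes, with a median of 0.17 against 0.07. The counts in cirrhosis were close to those background shares, so the number of members called there is no result about the family. The groups did not overlap for 8 of 10 members in acute injury, 5 in fibrosis and 4 in cirrhosis, against 60%, 58.7% and 27.2% of all genes tested. All 10 members passed the low-count filter in these 3 comparisons, which share the healthy libraries. Igfbp2 and Igfbp6 in acute injury, and Igfbp6 in fibrosis, passed it only through the healthy libraries. With so few counts in the treated libraries, only a lower call or none was open to them. Igf2 in acute injury (1 to 18 counts) and in fibrosis (8 to 23 counts), and Igfbp2 in fibrosis (4 to 27 counts), also passed only with the healthy libraries. Too few of their treated libraries reached the filter's cutoff. None of these genes therefore adds support to the family's counts and medians in those comparisons.

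Scaling by library size alone moved the median of all genes from -0.09 to 0.32 in acute injury, from -0.03 to 0.37 in fibrosis and from 0.07 to 0.42 in cirrhosis. The share of called genes that were higher moved with it, from 50.3% to 60.9% in fibrosis and from 52.2% to 71.3% in cirrhosis. Upper-quartile factors moved it to 0.21 in cirrhosis against healthy and to 0.22 in cirrhosis against acute injury. TMM factors were 0.712 to 0.939 in healthy libraries and 0.975 to 1.18 in the others. No member changed direction against healthy LSECs under either scaling.

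Igf1 (ENSRNOG00000004517), the growth hormone-dependent ligand, ranged from 6.39 to 83.0 CPM in healthy LSECs with a median of 27.2. The acute libraries 1, 2, 3, 4 and 8 held 4.33, 5.15, 3.64, 8.89 and 1.39 CPM, and the fibrosis libraries 12, 13, 15, 16 and 17 held 2.96, 3.25, 9.84, 13.3 and 6.18. Cirrhotic libraries ranged from 27.3 to 46.2 with a median of 40.3. Healthy replicates 3 and 5, at 6.39 and 7.40 CPM, overlapped the acute and fibrotic libraries, while the cirrhotic libraries lay above both. Igf1 was 5.40-fold lower in acute injury (log2 fold change -2.43, SE 0.76, adjusted p = 0.0106) and 3.61-fold lower in fibrosis (-1.85, SE 0.73, adjusted p = 0.0369). The fibrosis call was lost in 7 of the 11 fits that left out 1 library, namely healthy 1, 2, 4 or 6 or fibrosis 12, 13 or 17, with log2 fold changes from -2.21 to -1.49 over the 11 fits. In cirrhosis the difference from healthy was 0.77 (SE 0.51, adjusted p = 0.213) and did not pass.

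Igf2 (ENSRNOG00000020369), the fetal growth ligand, was at a low level throughout. Healthy libraries held 0.644 to 1.47 CPM (median 1.02), acute libraries 0.163, 0.272, 0.222, 0.023 and 0.568, and fibrosis libraries 0.660, 0.531, 0.266, 0.402 and 0.554. The cirrhotic libraries held 2.16 to 6.81 CPM (median 3.70). Every cirrhotic library was above every healthy library, every acute library was below, and 1 fibrotic library reached into the healthy range. Behind these levels stood 18 to 44 counts in healthy, 1 to 18 in acute, 8 to 23 in fibrotic and 85 to 275 in cirrhotic libraries. Igf2 was 3.67-fold higher in cirrhosis than in healthy LSECs (log2 1.88, SE 0.34, adjusted p = 0.00065). It was lower in acute injury (-2.40, SE 0.58, adjusted p = 0.00239), where the value was -1.74 without acute replicate 4. In fibrosis it was lower by a smaller amount (-0.98, SE 0.33, adjusted p = 0.0184), and that call was lost without fibrosis replicate 15 (-0.78, adjusted p = 0.0583). In both of these comparisons Igf2 passed the low-count filter only with the healthy libraries.

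Igf1r (ENSRNOG00000014187), the receptor tyrosine kinase for both ligands, ran against the rest of the family. Healthy libraries held 6.77 to 11.1 CPM (median 7.03) and cirrhotic libraries 5.67 to 6.50 (median 5.76). Acute libraries held 24.6, 19.6, 27.9, 15.2 and 34.3 CPM, and fibrotic libraries 28.8, 32, 27.4, 27.6 and 31.2. All acute and fibrotic libraries were thus above all healthy ones, and all cirrhotic libraries were below them. The increase was 3.07-fold in acute injury (log2 1.62, SE 0.24, adjusted p = 5.19e-05) and 3.96-fold in fibrosis (log2 1.99, SE 0.15, adjusted p = 2.24e-07). In cirrhosis the difference of -0.39 (SE 0.16, adjusted p = 0.0483) was under the fold threshold, so Igf1r was not called there.

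Igfbp1 (ENSRNOG00000058780), a hepatocyte-secreted binding protein under insulin control, had the widest spread among healthy libraries, with 102, 23.1, 9.58, 112, 0.572 and 96.7 CPM in replicates 1 to 6. Acute libraries held 0.735, 0.545, 0.417, 3.57 and 0.379 CPM, and fibrotic libraries 5.37, 7.30, 10.4, 16.2 and 4.14. Cirrhotic libraries lay between 14.0 and 57.2 (median 28.1). Healthy replicate 5 lay among the acute libraries. In the same healthy replicates the 10 hepatocyte markers summed to 15773, 27623, 3895, 30254, 1404 and 24959 CPM, so that the lowest Igfbp1 and hepatocyte sums fell in replicates 3 and 5. Igfbp1 was lower in acute injury (log2 -4.85, SE 1.87, adjusted p = 0.0312). The estimate was -5.92 without healthy replicate 5, and the call was lost without healthy replicate 6 or without acute replicate 1, 2, 3 or 8 (adjusted p up to 0.0609). In fibrosis (-1.52, SE 1.32, adjusted p = 0.309) and cirrhosis (0.34, SE 1.07, adjusted p = 0.803) it did not pass in limma-voom.

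Healthy replicates 3 and 5 were set apart after the values were seen, as the healthy libraries with the lowest hepatocyte sums. The pair also held the lowest healthy sums of Kupffer cell (499 and 559 CPM) and mesothelial markers (44.8 and 8.69 CPM). Hepatocyte markers alone thus do not set it apart. It held the lowest healthy levels of Igf1 and Igfbp1 as well. The choice itself therefore fixes the direction in which the values of these genes shift, and they are given as a description. With this pair as the healthy group, the acute decreases were -0.57 for Igf1 and -1.39 for Igfbp1, and neither was called. Without the pair they were -3.21 and -6.43. The shift was not limited to these genes. In fibrosis, Igf2 (-0.82), Igfbp2 (-1.07) and Igfbp5 (-0.90) also lost their calls with the pair alone, as did Igf1 (-0.13), whereas Igf1r, Igfbp3, Igfbp4, Igfbp6 and Igfbp7 stayed called. Without the pair, all 10 members were called in fibrosis.

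**Figure D2:**
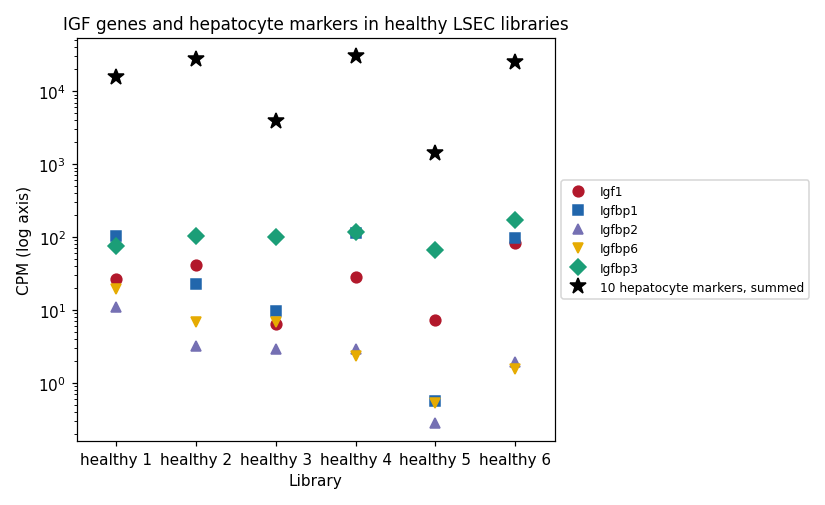
Levels of Igf1, Igfbp1, Igfbp2, Igfbp6 and Igfbp3 and the summed level of 10 hepatocyte markers (stars) in the 6 healthy libraries, in CPM on a log axis. Igf1 and Igfbp1 are low in healthy replicates 3 and 5, where the hepatocyte sums are 3895 and 1404 CPM, and Igfbp3 stays between 66.2 and 171 CPM.

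Igfbp3 (ENSRNOG00000061910), the main carrier of IGFs in blood and known as a product of sinusoidal cells in the liver, was 66.2 to 171 CPM in healthy LSECs (median 102). Acute libraries held 5.88, 2.72, 2.92, 2.95 and 7.04 CPM, and fibrotic libraries 10.3, 9.86, 9.34, 9.93 and 5.05. Cirrhotic libraries held 147 to 530 CPM (median 305). Acute and fibrotic libraries did not overlap with healthy ones, and 2 cirrhotic libraries lay within the healthy range. Igfbp3 was 25.1-fold lower in acute injury (log2 -4.65, SE 0.35, adjusted p = 1.73e-07) and 11.2-fold lower in fibrosis (-3.48, SE 0.29, adjusted p = 5.31e-07). In cirrhosis it was 2.73-fold higher than in healthy LSECs (log2 1.45, SE 0.33, adjusted p = 0.00267), and it was called in all 26 alternatives tried for that comparison.

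Igfbp4 (ENSRNOG00000010635), which inhibits IGF action until it is cleaved by the protease PAPP-A, had the largest decrease of the family. It was 572 to 970 CPM in healthy LSECs (median 697). It was 14.3, 11.2, 16.5, 7.65 and 49.8 CPM in acute and 14.7, 21.7, 17.2, 20.2 and 7.12 CPM in fibrotic libraries. No treated library reached the lowest healthy one, since the cirrhotic libraries held 235 to 408 CPM (median 316). Igfbp4 was 45.2-fold lower in acute injury (log2 -5.5, SE 0.37, adjusted p = 7.59e-08), 45.4-fold lower in fibrosis (-5.51, SE 0.27, adjusted p = 8.67e-09) and 2.28-fold lower in cirrhosis (-1.19, SE 0.18, adjusted p = 0.000253). All 3 calls held in every alternative tried.

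Igfbp5 (ENSRNOG00000017206), a matrix-associated binding protein made by mesenchymal cells among others, showed the largest increase of the family in cirrhosis. Healthy libraries held 2.90 to 11.1 CPM (median 7.83), acute libraries 0.354, 0.572, 0.917, 0.990 and 0.884, and fibrotic libraries 1.98, 1.97, 1.93, 4.56 and 3.24. The cirrhotic libraries 1 to 6 held 46.1, 56.0, 33.4, 47.9, 33.3 and 192 CPM. All cirrhotic libraries were above all healthy ones, and replicate 6 stood far above the other cirrhotic libraries. Igfbp5 was 7.92-fold higher in cirrhosis (log2 2.99, SE 0.45, adjusted p = 0.000239), and the value was 2.62 without cirrhosis replicate 6. It was lower in acute injury (-3.25, SE 0.45, adjusted p = 3.42e-05) and in fibrosis (-1.35, SE 0.39, adjusted p = 0.00736). In cirrhosis 8 of the 10 stellate markers, such as Dcn and Rgs5, were also higher than in healthy LSECs, and the part of these cells in the Igfbp5 level was not tested. The stellate sum in cirrhosis replicate 6 was 1996 CPM, against 1757, 2210, 1649, 1425 and 934 CPM in cirrhosis replicates 1 to 5.

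Igfbp7 (ENSRNOG00000002050), a vascular basement membrane protein that is released by endothelial cells, was 447 to 1253 CPM in healthy LSECs (median 659). It was 96.7, 102, 92.4, 64.8 and 118 CPM in acute and 111, 159, 132, 129 and 84.0 CPM in fibrotic libraries. Cirrhotic libraries held 603 to 828 CPM (median 730). The acute and fibrotic libraries lay below all others, and the cirrhotic libraries lay within the healthy range. Igfbp7 was 7.41-fold lower in acute injury (log2 -2.89, SE 0.25, adjusted p = 5.52e-07) and 5.61-fold lower in fibrosis (-2.49, SE 0.25, adjusted p = 2.55e-06). In cirrhosis the difference was 0.01 (SE 0.22, adjusted p = 0.961), which is not proof of equal levels.

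Igfbp2 (ENSRNOG00000016957) and Igfbp6 (ENSRNOG00000010977), the latter a binding protein that prefers IGF2, were measured with few counts. Healthy libraries ranged from 0.286 to 11 CPM for Igfbp2 and from 0.536 to 19.1 for Igfbp6. Acute libraries held 0 to 6 counts of Igfbp2 and 1 to 7 of Igfbp6, and fibrotic libraries 4 to 27 and 4 to 9. The highest value of both was in healthy replicate 1, which also had the highest sums of lymphocyte (214 CPM), neutrophil (45.1 CPM) and mesothelial (176 CPM) markers among healthy libraries, and the lowest of both was in healthy replicate 5. The part of those cells was not tested. Both genes were lower in acute injury, with log2 fold changes of -4.78 for Igfbp2 (SE 1.10, adjusted p = 0.00163) and -4.82 for Igfbp6 (SE 1.15, adjusted p = 0.00201). There they passed the low-count filter only through the healthy libraries, so only a lower call or none was open to them. For Igfbp2 the value was -4.10 without acute replicate 2, which held 0 counts, and -5.39 without healthy replicate 5. In fibrosis Igfbp2 was lower (-2.42, SE 0.91, adjusted p = 0.029), a call lost without fibrosis replicate 13 or 15, and so was Igfbp6 (-4.00, SE 1.07, adjusted p = 0.00493). Both passed the filter in that comparison only with the healthy libraries. In cirrhosis Igfbp2 was lower (-1.85, SE 0.73, adjusted p = 0.0434), and 10 of 12 fits that left out 1 library lost that call, the exceptions being those without cirrhosis replicate 6 or healthy replicate 5. Igfbp6 did not pass there (-1.0, SE 0.72, adjusted p = 0.251), although edgeR called it lower (-1.81, adjusted p = 0.0326).

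**Figure D3:**
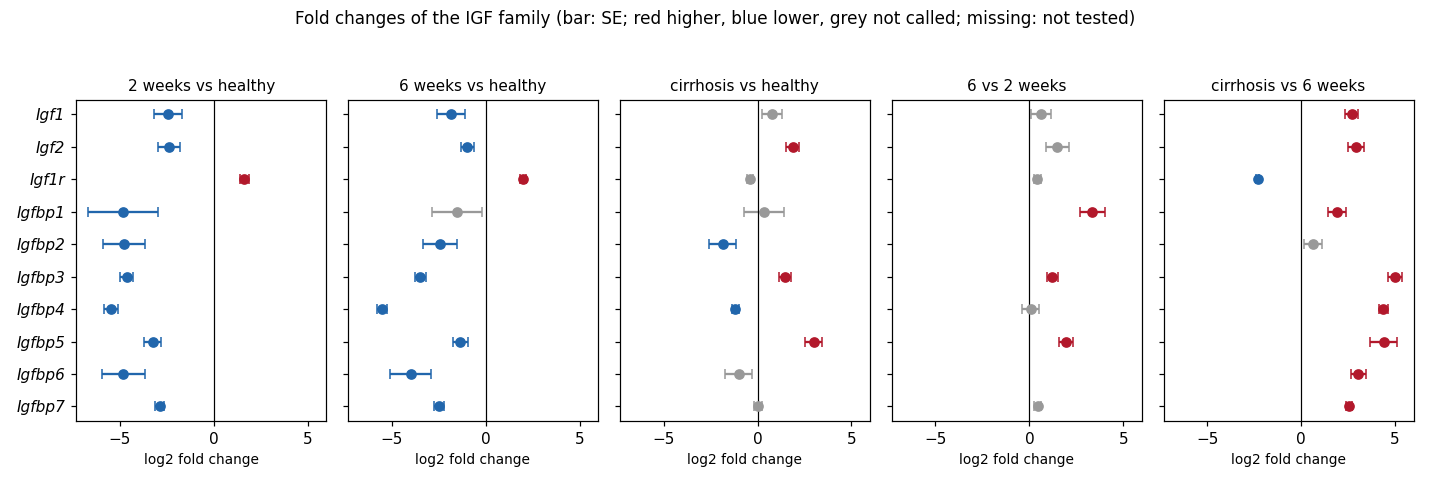
Log2 fold changes of the IGF family in 5 comparisons of the CCl4 experiment (limma-voom), with the SE as a bar, red for genes called higher, blue for genes called lower and grey for genes not called. Blue points dominate at 2 and 6 weeks against healthy, from -5.51 to -0.98, red points dominate for cirrhosis against 6 weeks, from 1.92 to 4.99, and Igf1r has the opposite colour in each of these panels.

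All binding proteins together, without correction for transcript length, held 1298 to 2240 CPM in healthy LSECs. The sum was 80.2 to 177 CPM in acute and 105 to 200 CPM in fibrotic LSECs, and 1066 to 1837 CPM in cirrhotic LSECs. Within that sum the share of Igfbp4 counts went from 38.3-54.4% in healthy to 9.53-28.1% in acute, 6.80-11.2% in fibrotic and 19.8-23.5% in cirrhotic libraries. The share of Igfbp7 went from 34.4-55.9% in healthy to 67.0-87.1% in acute and 71.3-80.3% in fibrotic libraries, and was 42.7-56.5% in cirrhosis. Igfbp3 held 4.5-11.5% of the binding protein counts in healthy and 10.4-28.8% in cirrhotic libraries. The Igfbp4 share was therefore lower in every cirrhotic library than in any healthy one, while the Igfbp7 shares of these groups overlapped.

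From acute injury to fibrosis the family changed little by comparison, with 8 members passing the low-count filter (Igfbp2 and Igfbp6 did not). Igfbp1 was higher in fibrosis by 3.36 on the log2 scale (SE 0.65, adjusted p = 0.0079), Igfbp3 by 1.22 (SE 0.31, adjusted p = 0.0211) and Igfbp5 by 1.95 (SE 0.37, adjusted p = 0.00749). No member was called lower, also with edgeR, with DESeq2 or with an unadjusted p under 0.05. Of all 13931 genes, 10.2% were called higher and 0.732% lower. The groups did not overlap for Igfbp1 and Igfbp5, 2 of the 8 members tested, and for 17.2% of all genes. Hepatocyte markers were higher in fibrosis for 10 of 10 genes and stellate markers for 6 of 10, and their part was not tested. Igfbp1 was 3.97 without acute replicate 4, and Igfbp3 lost its call without acute replicate 2 (adjusted p = 0.0574). A single fit over all 4 CCl4 groups called 0 members, with 4 at an unadjusted p under 0.05, whereas edgeR and DESeq2 on these groups each called 3.

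From fibrosis to cirrhosis 8 of 10 members rose and Igf1r fell, against 34.3% of 15186 genes called higher and 29.5% called lower. The largest rises were those of Igfbp3 (log2 4.99, SE 0.39, adjusted p = 1.94e-07), Igfbp5 (4.39, SE 0.71, adjusted p = 0.000111) and Igfbp4 (4.38, SE 0.25, adjusted p = 1.42e-08). Igfbp2 did not pass (0.61, SE 0.48, adjusted p = 0.263). Igfbp6, at 4 to 9 counts in fibrotic libraries, passed the low-count filter only with the cirrhotic ones. It therefore adds no support to the number of members that rose or did not overlap from fibrosis to cirrhosis. Igf1r was 5.01-fold lower in cirrhosis than in fibrosis (-2.33, SE 0.08, adjusted p = 3.15e-10). Between cirrhosis and acute injury 9 of 10 members were higher and Igf1r lower, against 37.5% and 31.8% of 15005 genes, and the groups did not overlap for any of the 10, nor for 65.9% of all genes. From fibrosis to cirrhosis 8 of 10 members and 63.3% of all genes did not overlap. Those 9 increases ranged from 2.93 for Igfbp7 to 6.27 for Igfbp5 on the log2 scale. Against acute injury, Igf2, Igfbp2 and Igfbp6 passed the low-count filter only with the cirrhotic libraries. Acute libraries held 1 to 18, 0 to 6 and 1 to 7 counts of them. For Igfbp2 and Igfbp6 only a higher call or none was open. All 3 therefore add no support to the number of members called or not overlapping in that comparison. LSEC markers moved the same way, with 9 of 10 higher in cirrhosis than in fibrosis and 10 of 10 higher than in acute injury, and so did hepatocyte markers (8 and 10 of 10) and Kupffer cell markers (10 and 10 of 10). Stellate markers were higher than in fibrosis for 7 of 10 genes and than in acute injury for 9 of 10, with Reln lower in both. Lymphocyte (7 of 8), cholangiocyte (6 of 7) and mesothelial (6 of 6) markers were also higher in cirrhosis than in acute injury. The part of all these markers in the rises of the family, Igfbp5 included, was not tested.

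In the TAA experiment, the group labelled TAA control held lower levels of most members than the group labelled control. Of 9 members tested, 6 were called lower and 0 higher, and 0 were higher also at an unadjusted p under 0.05, in edgeR and in DESeq2. Of all 14376 genes, 14.9% were called lower and 12.7% higher. Igfbp5 stood out with 549, 424, 184, 639 and 472 CPM in control replicates 1 to 5 against 5.30, 7.54, 4.78, 3.67 and 2.91 CPM in TAA control replicates 10, 12, 13, 14 and 15. The groups were far apart, and the fold change of 89.1 (log2 -6.48, SE 0.42, adjusted p = 4.68e-06) ranked 14 by size among the 14376 genes tested.

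Igfbp3 followed with 220, 701, 349, 369 and 300 CPM in the group labelled control and 66.1, 38.4, 40.0, 72.3 and 72.5 CPM in the group labelled TAA control (-2.69, SE 0.30, adjusted p = 6.85e-05). Igfbp1 was 9.12 to 25.2 against 0.277 to 2.40 CPM (-4.22, SE 0.70, adjusted p = 0.000707), and Igf2 1.89 to 6.84 against 0.797 to 1.03 CPM (-1.81, SE 0.42, adjusted p = 0.00435). None of these 4 genes overlapped between the groups. With Igfbp7, that was 5 of the 9 members tested, against 35.4% of all genes. Smaller differences were seen for Igfbp7, at 650 to 911 against 406 to 492 CPM (-0.85, SE 0.10, adjusted p = 0.000117), and for Igf1, whose groups overlapped (-0.94, SE 0.23, adjusted p = 0.0061). Igf1r (0.04, SE 0.10), Igfbp4 (0.12, SE 0.16) and Igfbp6 (-0.77, SE 0.43) did not pass, with adjusted p of 0.738, 0.534 and 0.161, and Igfbp2 had too few counts to be tested.

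Stellate markers also separated these groups, with 2935 to 6252 CPM in the group labelled control and 529 to 926 CPM in the group labelled TAA control and 9 of 10 genes lower in the latter. Hepatocyte markers summed to 2360 to 5896 against 694 to 1577 CPM, with 7 of 10 genes lower. LSEC markers summed to 20780 to 25881 against 25965 to 34400 CPM, with 3 of 10 higher in the group labelled TAA control. The part of the stellate and hepatocyte markers in these results was not tested. Replicates 14 and 15 were closer to each other (chi-square per degree of freedom 3.05) than any other pair in a group (at least 25.2), and with both summed to 1 library 6 members were still called.

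**Figure D4:**
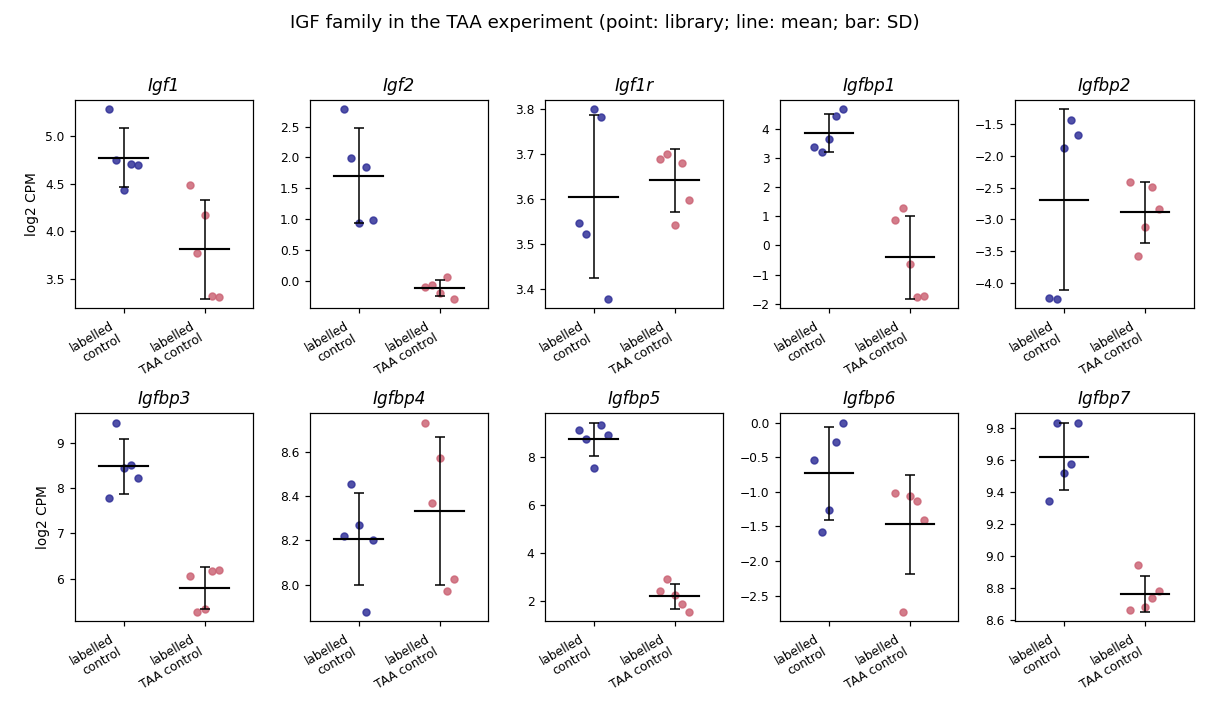
Levels of the 10 IGF family genes on a log2 CPM axis in the TAA experiment, in the groups labelled control and TAA control, with 1 point per library (5 per group), the mean as a line and the SD as a bar. Igfbp5 lies at 184 to 639 CPM in the first group and at 2.91 to 7.54 CPM in the second, and the groups overlap for Igf1, Igf1r, Igfbp2, Igfbp4 and Igfbp6.

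Other genes of the pathway were taken from lists chosen with earlier results of these data known. Of 24 tested genes for IGF receptors and signalling, 8 were higher and 9 lower in acute injury, 9 and 9 in fibrosis, and 6 and 6 in cirrhosis, each against healthy LSECs. Of all genes, 35.5% were higher and 37.9% lower in acute injury, 35.3% and 34.9% in fibrosis, and 27.1% and 24.7% in cirrhosis. The counts lie near these shares, so they are no result about the list. The list medians were -0.37, 0.01 and 0.05, beside -0.09, -0.03 and 0.07 over all genes. Insr, the insulin receptor, which can pair with the IGF1 receptor, went from 10.7 ± 3.79 CPM (SD, n = 6) in healthy to 5.31 ± 2.83 (n = 5) in acute, 20.9 ± 5.96 (n = 5) in fibrotic and 54.3 ± 21.2 (n = 6) in cirrhotic LSECs. It was lower in acute injury (-1.02, adjusted p = 0.0158) and higher in fibrosis (1.05, adjusted p = 0.0042) and cirrhosis (2.32, adjusted p = 0.000124). The adaptors Irs1 (-1.26, adjusted p = 0.000695) and Irs2 (-3.22, adjusted p = 0.000699) were lower in acute injury and did not pass in cirrhosis (0.31 and 0.20). Pik3ca, the catalytic subunit of PI3 kinase, was higher in acute injury (2.99, adjusted p = 3.33e-06) and in cirrhosis (1.23, adjusted p = 0.00386). Igf2r, which removes IGF2 from the cell surface, was higher in fibrosis (0.94, adjusted p = 0.0277) and did not pass in acute injury (0.34) or cirrhosis (0.76).

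Of 9 tested genes for proteases that cleave the binding proteins and for their inhibitors, 2 were higher and 5 lower in acute injury, against 35.5% and 37.9% of all genes. In cirrhosis 2 were higher and 3 lower, against 27.1% and 24.7%, so these counts are no result about the list. Stc1, which encodes an inhibitor of the protease PAPP-A, went from 2.22 ± 0.60 CPM in healthy (n = 6) to 101 ± 35.6 in acute (n = 5), 86.5 ± 18.5 in fibrotic (n = 5) and 9.11 ± 2.22 in cirrhotic LSECs (n = 6). The log2 fold changes were 5.5 in acute injury (SE 0.33, adjusted p = 2.98e-08), 5.36 in fibrosis and 2.06 in cirrhosis. Pappa itself was not tested against healthy LSECs, where its level was 0.07 ± 0.08 CPM. Adamts1 (-3.90), Plau (-2.13) and Ctsd (-2.31) were lower in acute injury, and of these Ctsd was also lower in cirrhosis (-1.73, adjusted p = 0.000187).

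In the growth hormone axis 2 of 8 genes were higher and 6 lower in acute injury, with a median of -2.53, and 2 were higher and 3 lower in cirrhosis. Of all genes, 35.5% were higher and 37.9% lower in acute injury and 27.1% and 24.7% in cirrhosis, so the cirrhosis counts lie near the background. Ghr, the growth hormone receptor, was 37.2 ± 17 CPM in healthy and 5.33 ± 0.40 in acute LSECs (-2.62, adjusted p = 6.78e-05), and did not pass in cirrhosis (-0.39, adjusted p = 0.341). Of the feedback inhibitors of its signal, Socs3 (-5.80, adjusted p = 4.47e-09) and Cish (-3.85, adjusted p = 1.28e-07) were lower in acute injury, and also lower in cirrhosis (-1.02 and -1.23). Socs2, also a feedback inhibitor and named after its values were seen, was higher in acute injury (1.06, adjusted p = 0.0182) and in cirrhosis (0.83, adjusted p = 0.0111). Igfals, the liver protein that completes the circulating complex of IGF and IGFBP3, was lower in acute injury (-5.46, adjusted p = 0.00458) and did not pass in cirrhosis (-1.73, adjusted p = 0.11).

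Among IGFBP-related proteins, 3 of 5 were higher and 1 lower in acute injury, against 35.5% and 37.9% of all genes. Ctgf, a matricellular protein of the CCN family, was 32.5 ± 9.20 CPM in healthy, 395 ± 174 in acute, 373 ± 124 in fibrotic and 28.9 ± 8.23 in cirrhotic LSECs, with log2 fold changes of 3.60 (adjusted p = 1.17e-07), 3.58 (adjusted p = 5.8e-08) and -0.16 (adjusted p = 0.559). Esm1, an endothelial proteoglycan, was also higher in acute injury (4.16, adjusted p = 0.000173), whereas Cyr61 did not pass in acute injury (-0.59) and was lower in cirrhosis (-1.21, adjusted p = 0.000846). Of 2 tested genes for IGF2 mRNA-binding proteins, 1 was higher and 1 lower in acute injury, and 1 was lower in cirrhosis, where 24.7% of all genes were lower. Counts over so few genes are no result about either list. Igf2bp2, which encodes a protein that binds Igf2 mRNA, ran against Igf2 itself. It was 5.60 ± 3.16 CPM in healthy, 51.5 ± 10.9 in acute, 32.8 ± 5.80 in fibrotic and 0.50 ± 0.10 in cirrhotic LSECs. The log2 fold change was 3.38 in acute injury (adjusted p = 1.89e-06) and -3.28 in cirrhosis (adjusted p = 0.000133), against -2.40 and 1.88 for Igf2. In the TAA experiment it was higher in the group labelled TAA control (4.80, adjusted p = 1.89e-06), in which Igf2 was lower (-1.81).

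**Figure D5:**
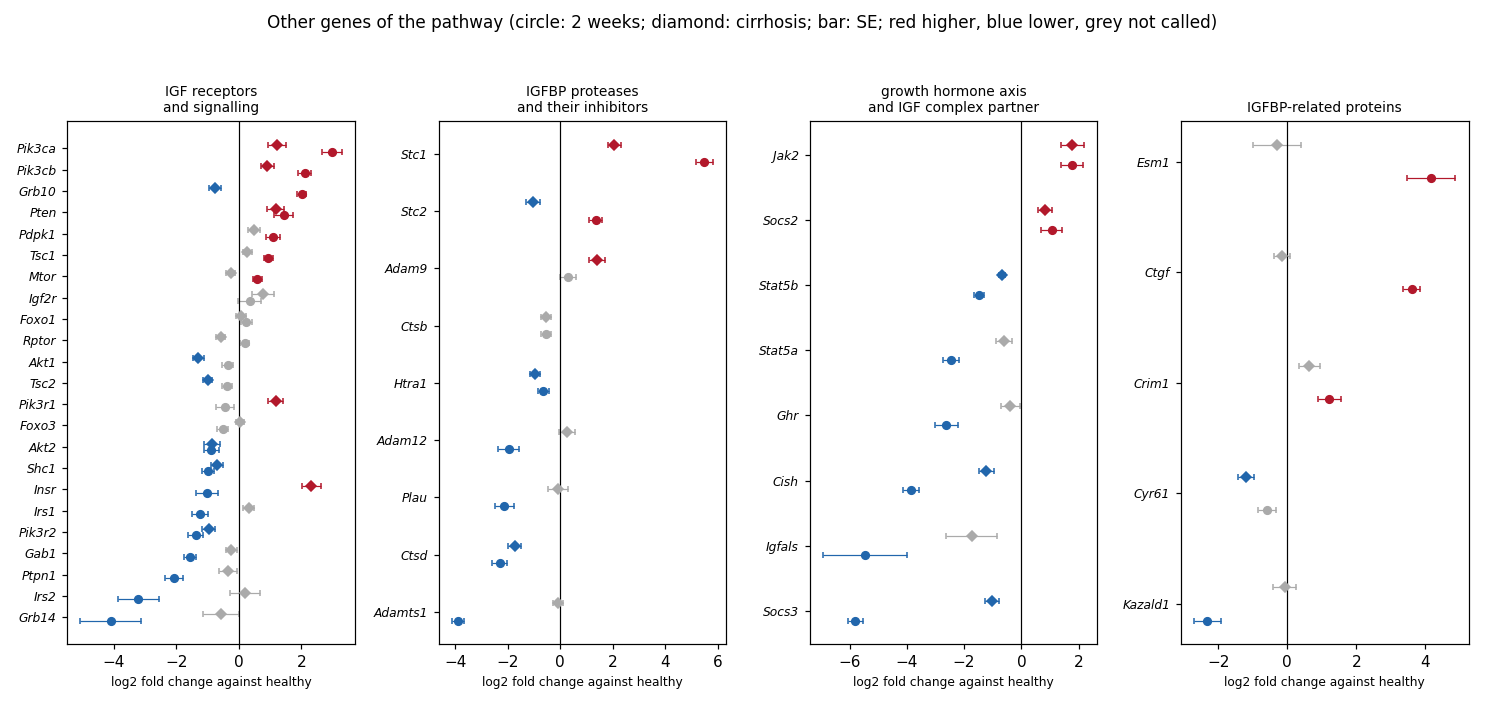
Log2 fold changes against healthy LSECs (limma-voom, SE as a bar) of 4 lists of pathway genes after 2 weeks of CCl4 (circles) and in cirrhosis (diamonds), red for genes called higher, blue for lower and grey for not called. Circles reach from -5.80 for Socs3 to 5.5 for Stc1, and most diamonds lie nearer to 0.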

How the data were processed

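RNA from LSECs of 32 rat libraries was sequenced (TruSeq Stranded mRNA). The deposited values are the authors' expected counts per gene from RSEM, after STAR alignment on the Rnor_6.0 assembly, and they carry no normalization. Between 10.3% and 12.4% of values per library were not whole, and all were rounded to whole numbers. Groups came from the sample labels, with replicate numbers from the sample titles. In R 4.3.3, genes with low counts were removed with edgeR's filterByExpr (edgeR 4.0.16), libraries were scaled with TMM, and each pair of groups was fitted with limma-voom (limma 3.58.1), the method the study names. Calls used a Benjamini-Hochberg adjusted p under 0.05 over all genes tested and a fold change above 1.5. The study's rule of an unadjusted p was an alternative. Log2 CPM carried a pseudocount of 0.5 counts.

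Fold changes are on the log2 scale of the fit, first group minus second. SE and p rest on the spread between libraries. The study describes its replicates as independent LSEC isolations, while the labels do not say how each library was obtained from a rat. Alternatives were edgeR's quasi-likelihood test, DESeq2 1.42.0, other scalings and filters, library weights, a single fit, a replicate block and each library left out. The calls were tested on simulated data. The rule for the members uses gene symbols only, but the family and the lists were chosen with earlier results of these data known. Of each pathway or marker list, at most 4 genes were named, those with the largest change among genes called in acute injury or cirrhosis against healthy LSECs at a mean log2 CPM of at least 1. Insr, Igf2r, Irs1, Irs2, Pappa, Ghr, Igfals, Ctgf, Cyr61 and Stc1 were named whatever their values. Of the IGF receptor and signalling list, 1 gene is included in the counts but is not reported here by itself or drawn. Grb2 was left out because several entries share the symbol. The TAA replicate numbers are those of the titles, which differ from the descriptions for 4 libraries. Promoters were read with Python 3.11.15 from RefSeq tables on GRCr8. Transcript length was not used here.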

Additional observations from a re-analysis of the deposited data

Results flagged for a closer look

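In 5 of 60 combinations of gene and group, 1 library stood apart from the others of its group by Dixon's test. Chance alone flags about 1 in 20 groups, or 3 of 60. Igfbp5 in cirrhosis replicate 6 was high, at a log2 CPM of 7.59. Igf1r in cirrhosis replicate 3 was high at 2.70, although the group ranged only from 5.67 to 6.50 CPM. Igfbp3 in fibrosis replicate 17 was low at 2.34. Igfbp2 in acute replicate 2 was low at -6.20, which stands for 0 counts, and Igfbp6 in TAA control replicate 12 was low at -2.73, which stands for 4 counts.

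Igf2, Igfbp3 and Igfbp5 were called lower than in healthy LSECs in acute injury and fibrosis and higher in cirrhosis, so that their changes differed between stages. The difference was read from the direct comparison of the stages, since the healthy libraries are shared. Cirrhosis lay above acute injury on the log2 scale by 4.31 for Igf2, 6.13 for Igfbp3 and 6.27 for Igfbp5, and above fibrosis by 2.90, 4.99 and 4.39, each called by limma-voom. A call in that comparison was also a condition for flagging these genes here, so it adds no separate support.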

How the results depend on the processing

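The number of members called stayed within 1.5 times its value under all settings tried except for 2 cases. Using healthy replicates 3 and 5 only, a choice made after the data were seen, 5 members were called in fibrosis against healthy, in place of 9. A single fit over the 4 CCl4 groups called 0 members between fibrosis and acute injury, in place of 3 (edgeR and DESeq2 each called 3, and 4 passed an unadjusted p in the single fit). The cause of these changes was not tested. Leaving out 1 library gave 8 to 10 members in acute injury, 7 to 10 in fibrosis and 4 to 6 in cirrhosis against healthy, 2 to 4 between fibrosis and acute injury, 9 between cirrhosis and fibrosis, 10 between cirrhosis and acute injury and 6 in the TAA experiment. In acute injury Igfbp2 was not tested in 5 of the 11 such fits. Of the log2 fold changes of single members, 682 kept direction and call when 1 library was left out, 26 lost the call, 4 gained it and 13 changed sign. Over the other settings the numbers were 781, 17, 13 and 15.

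These are the values that changed sign. In cirrhosis against healthy, Igfbp1 was -0.80 with edgeR, -0.80 with DESeq2, -0.78 with library weights and -1.30 without both healthy replicates 3 and 5, and ranged from -0.73 to 0.77 when 1 library was left out. Igfbp7 was -0.060 with edgeR, -0.042 with DESeq2, -0.11 with library weights and -0.38 with healthy replicates 3 and 5 only, and ranged from -0.12 to 0.18 when 1 library was left out. Igf1 was -0.067 without both healthy replicates 3 and 5. Igfbp1 in fibrosis was 1.80 with healthy replicates 3 and 5 only. Igfbp4 between fibrosis and acute injury was -0.21 with edgeR, -0.23 with DESeq2, -0.032 with scaling by library size and -0.042 with the single fit, and ranged from -0.23 to 0.43 with 1 library left out. Igf1r in the TAA experiment ranged from -0.022 to 0.085 with 1 library left out. The causes were not tested.

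Correlations of same-numbered libraries' deviations ran from -0.21 to 0.23 between cirrhosis and healthy, from 0.044 to 0.15 between acute injury and healthy (all 4 pairs positive, 2 of them over 0.1) and from -0.075 to 0.061 between cirrhosis and acute injury. Not every pair exceeded 0.1 in any comparison, so the numbers were not taken to pair the rats. With the replicate block, 10 members were called in acute injury and 5 in cirrhosis against healthy and 10 in cirrhosis against acute injury, as without it, and Igfbp1 in cirrhosis was -0.18. Depth limits Igfbp2 and Igfbp6, at 0 to 7 counts in acute libraries.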
